A study of Mus musculus with 7 samples.

Results

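Pax1, Pax3, Meox1, Meox2, Uncx, Tcf15, Tbx18, Foxc1 and Foxc2 are transcription factors of the somites and of the sclerotome, the part of the somite that forms the axial skeleton. They were measured in whole mouse embryos with and without ADNP, a homeodomain and zinc-finger protein that binds chromatin. These 9 genes were taken by name, as the probe sets (groups of short probes for a transcript) whose platform annotation gave exactly 1 gene symbol, equal to one of theirs. They are 9 of the 12393 genes that could be named in this way, and they have 12 probe sets. Of the 9, 8 were bright enough to be tested, and Tbx18 was not.

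RNA came from embryos of the C57BL/6 strain on embryonic day 9, bred from ADNP heterozygous mice and freed of yolk sac and amnion. The groups were wild type (2 arrays), heterozygous for ADNP (3 arrays) and ADNP knockout (2 arrays). Each array held a pool of 2 littermates of 1 genotype, so 14 embryos gave 7 arrays, and the labels give the sex as mixed. The genotype was read by PCR for ADNP and the neomycin resistance gene in yolk sac DNA. The sources used here do not say how litters were divided over the pools, and p-values measure the spread between these pools. The arrays were Affymetrix Murine Genome 430A, which report the brightness of each probe set as a signal on a linear scale.

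Somites are blocks of paraxial mesoderm that bud off in pairs beside the neural tube. Their ventral cells become sclerotome under Sonic hedgehog from notochord and floor plate and later form vertebrae and ribs, while the dorsal dermomyotome gives skeletal muscle and dermis. Pax1 is a paired-box factor of the ventral sclerotome, Uncx marks its caudal compartment and Tbx18 its rostral one. Meox1 and Meox2 are homeobox factors of the whole somite, Tcf15 (paraxis) is needed for somites to become epithelial, Foxc1 and Foxc2 are forkhead factors of paraxial mesoderm, and Pax3 marks the dermomyotome together with the dorsal neural tube and neural crest.

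The median signal of an array was 55.5 to 57.4. Means trimmed by 2% at both ends agreed to within 0.1 signal units over the 7 arrays, so signals are relative to the whole array. The targeted gene gave no check of the labels, because the probe set annotated to Adnp was also annotated to Dpm1. On that shared probe set wild type read 897.2 and 1025.6, heterozygous 1114.7, 985.9 and 1195.8, and knockout 1880.2 and 1681.5. In tissue dissected whole, fewer cells of a type and less RNA per cell cannot be told apart.

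RefSeq promoter sequences (GRCm38.p6, 250 bases before to 50 bases after the annotated start) were given for 5 of the 9 genes, namely Pax1, Meox2, Uncx, Tbx18 and Foxc1. The first 3 lines below hold the promoters of genes that passed the filtered test between knockout and heterozygous embryos (Meox2 and Uncx did so only with the filter), and the last that of Foxc1, which did not pass. Each runs 5′ to 3′ on its gene's plus strand. Pax1 spans chr2:147364744-147365043, Meox2 chr12:37108290-37108589, Uncx chr5:139543648-139543947 and Foxc1 chr13:31806396-31806695. Capitals mark matches to 3 short motifs on either strand. The first is the CCAAT box, which reads ATTGG where it lies on the other strand. The second is the core TATA box, searched as TATAAA, which reads TTTATA from the other strand. The third is TAATTA, a palindrome that many homeodomain proteins bind.
Pax1: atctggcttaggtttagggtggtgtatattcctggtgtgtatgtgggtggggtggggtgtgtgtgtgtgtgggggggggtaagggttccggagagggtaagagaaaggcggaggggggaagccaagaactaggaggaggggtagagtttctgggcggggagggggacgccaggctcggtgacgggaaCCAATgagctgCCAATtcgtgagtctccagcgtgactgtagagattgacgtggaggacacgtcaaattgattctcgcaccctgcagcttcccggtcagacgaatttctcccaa
Meox2: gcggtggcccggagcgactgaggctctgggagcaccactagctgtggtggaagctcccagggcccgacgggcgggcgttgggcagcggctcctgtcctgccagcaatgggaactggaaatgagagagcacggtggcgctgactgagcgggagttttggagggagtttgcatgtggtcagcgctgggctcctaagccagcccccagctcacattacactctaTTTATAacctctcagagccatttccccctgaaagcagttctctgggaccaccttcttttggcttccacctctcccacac
Uncx: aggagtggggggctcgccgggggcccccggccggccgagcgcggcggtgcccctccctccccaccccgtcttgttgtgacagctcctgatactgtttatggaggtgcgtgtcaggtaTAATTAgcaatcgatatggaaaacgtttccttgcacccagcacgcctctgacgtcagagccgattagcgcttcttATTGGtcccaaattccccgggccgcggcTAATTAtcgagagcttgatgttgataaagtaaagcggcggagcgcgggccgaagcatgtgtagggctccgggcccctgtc
Foxc1: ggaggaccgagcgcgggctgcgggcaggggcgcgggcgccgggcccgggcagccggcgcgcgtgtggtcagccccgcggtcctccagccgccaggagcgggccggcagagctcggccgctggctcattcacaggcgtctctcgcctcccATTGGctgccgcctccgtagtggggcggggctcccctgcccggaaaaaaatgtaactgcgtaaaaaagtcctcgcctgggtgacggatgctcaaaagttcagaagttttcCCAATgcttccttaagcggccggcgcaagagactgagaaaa

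In these windows Pax1 holds CCAAT at 63 and 52 bases before the start and Meox2 a TATAAA at 29 bases before it. Uncx holds TAATTA at 133 and 30 bases before the start and a CCAAT at 58 bases before it. Foxc1 holds CCAAT at 101 bases before the start and 9 bases after it, and Tbx18, not printed, holds 1 at 87 bases before its start. Of 32851 RefSeq promoter windows of the same length, 37.4% hold CCAAT, 13.6% TATAAA and 5.29% TAATTA on either strand. The forkhead core TGTTTA (13.4% of windows) occurred in the Uncx window alone of these 5, and CANNTG, the E-box (72.3%), in Meox2, Uncx and Tbx18. GC content was 57.3% for Pax1, 60.7% for Meox2, 60.7% for Uncx, 51.7% for Tbx18 and 67.3% for Foxc1, against a median of 52.7% over all windows. The motifs were chosen after the sequences and values had been seen, and a match describes letters, not a bound site.

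Pax1 and Meox1 were lower in knockout embryos than in both other genotypes, with and without a filter on brightness. Meox2 and Uncx passed against heterozygous embryos in the filtered fit, missed the threshold against wild type, and passed neither comparison with no filter. Pax1, Meox2 and Uncx entered the filtered fit through the genotypes where they were bright, so their p-values with no filter stand beside the others. Foxc1, Foxc2, Tcf15 and Pax3 did not pass in either comparison. Between heterozygous and wild-type embryos no difference of theirs passed. Differences are on the scale of log2(signal + 3.8), and p-values are from limma over 8019 genes with Benjamini-Hochberg adjustment and a threshold of 0.05.

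**Figure D1:**
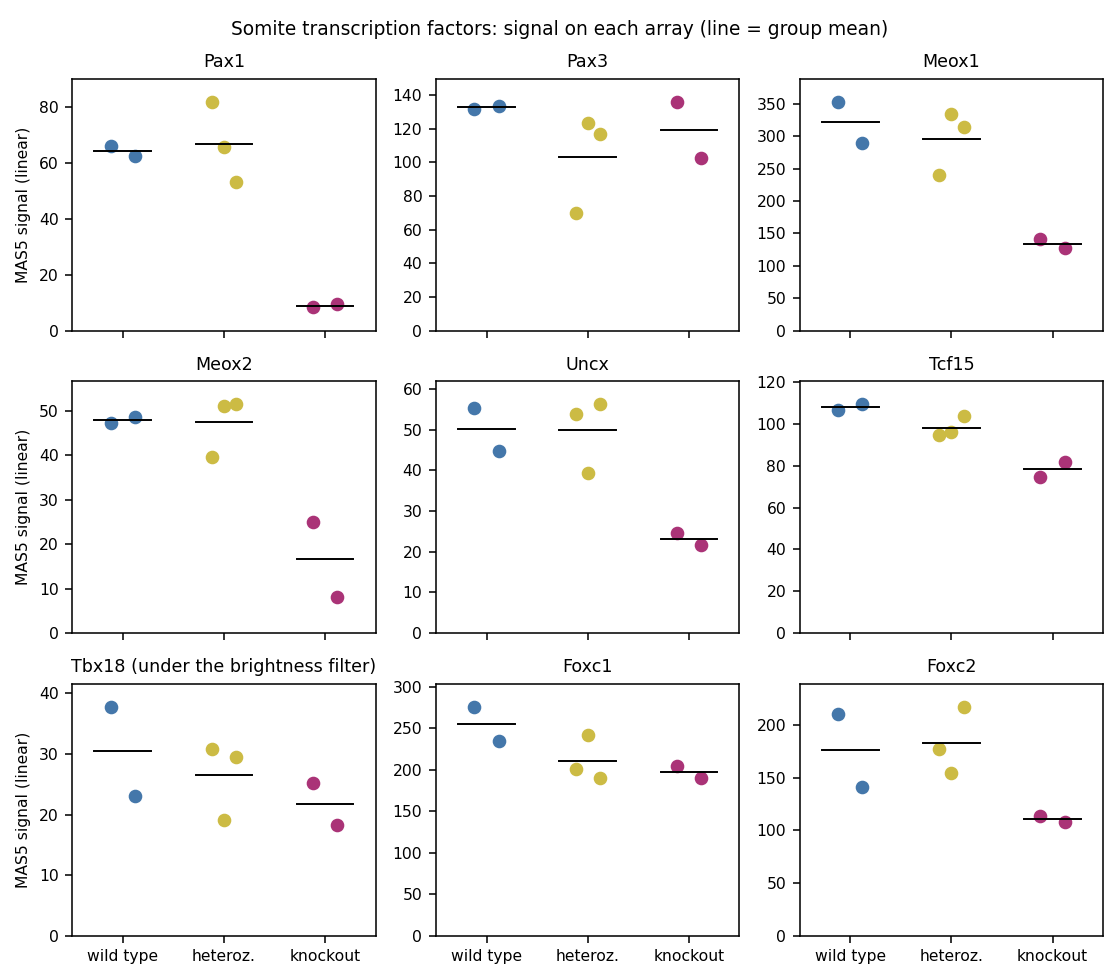
Signal of each somite transcription factor on every array (linear MAS5 signal, vertical axis from 0 and scaled for each gene), grouped by genotype, with points for arrays and a line for the group mean. For Pax1 both knockout points (8.5 and 9.3) lie under the lowest of the other 5 (52.9), whereas for Pax3 the genotypes overlap.

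Pax1 read 65.9 and 62.2 in wild type, 81.7, 65.6 and 52.9 in heterozygous and 8.5 and 9.3 in knockout embryos. All 5 arrays with an intact allele were high, both knockout arrays were low, and the groups did not overlap. Group means were 64.0 ± 2.62 (SD, n = 2), 66.7 ± 14.4 (SD, n = 3) and 8.90 ± 0.566 (SD, n = 2). The knockout readings lay under the filter level with no detection calls, so no fold is given. Pax1 fell by 2.42 on the log2 scale against wild type (SE 0.27, 95% interval -3.01 to -1.83, limma adjusted p = 0.0018) and fell by 2.45 against heterozygous embryos (SE 0.24, limma adjusted p = 0.000577). With no filter the limma adjusted p was 0.0084 and 0.00403. The size depends on the pseudocount, being -2.72 against wild type with a pseudocount of 1 and -1.68 with 16. Without any 1 array Pax1 stayed past the threshold in both.

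Uncx read 55.4 and 44.7 in wild type, 53.8, 39.3 and 56.2 in heterozygous and 24.5 and 21.7 in knockout embryos. Both knockout arrays were again the lowest of the 7, and the mean of 23.1 ± 1.98 (SD, n = 2) compares with 50.0 ± 7.57 (SD, n = 2) in wild type and 49.8 ± 9.14 (SD, n = 3) in heterozygous embryos. In the filtered fit the log2 difference of Uncx from heterozygous embryos was -0.98 (SE 0.24, limma adjusted p = 0.0439). Against wild type its difference was -0.996 (SE 0.26, limma adjusted p = 0.0707). With no filter the call against heterozygous embryos was lost (limma adjusted p = 0.0928). It was also lost without wild type 1 (limma adjusted p = 0.0578), wild type 2 (0.0562), heterozygous 1 (0.101), heterozygous 3 (0.116), knockout 1 (0.164) or knockout 2 (0.215), and kept only without heterozygous 2.

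Meox1 read 353 and 289.6 in wild type, 239.3, 334.2 and 313.4 in heterozygous and 141 and 127.4 in knockout embryos. No knockout array came near the lowest of the other 5, heterozygous 1. The wild-type mean of 321.3 ± 44.8 (SD, n = 2) was 2.39 times and the heterozygous mean of 295.6 ± 49.9 (SD, n = 3) 2.20 times the knockout mean of 134.2 ± 9.62 (SD, n = 2). Meox1 fell by 1.23 on the log2 scale against wild type (SE 0.18, limma adjusted p = 0.00622) and fell by 1.11 against heterozygous embryos (SE 0.16, limma adjusted p = 0.00534). Both calls were lost without knockout 2 (limma adjusted p = 0.0677 and 0.0745) and held without any other array.

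Meox2 has a pair of probe sets that differ. The brighter one, which represented the gene and whose name marks possible matches to more than 1 transcript, read 47.2 and 48.6 in wild type, 39.6, 51.1 and 51.5 in heterozygous and 25.1 and 8.2 in knockout embryos. The knockout arrays lay under all others but far apart from each other, with a mean of 16.6 ± 12.0 (SD, n = 2) against 47.9 ± 0.990 (SD, n = 2) and 47.4 ± 6.76 (SD, n = 3). In the filtered fit the log2 difference of Meox2 from heterozygous embryos was -1.45 (SE 0.35, limma adjusted p = 0.0404), and that from wild type was -1.47 (SE 0.38, limma adjusted p = 0.0646). The call against heterozygous embryos was lost with no filter (limma adjusted p = 0.085), and without wild type 1 (0.0554), wild type 2 (0.0562), heterozygous 1 (0.0549), heterozygous 2 (0.0757), heterozygous 3 (0.108) or knockout 2 (0.235). Without knockout 1, by contrast, the difference from wild type also passed (limma adjusted p = 0.0256). The size turned on knockout 2, which read 8.2. Without it the differences were -0.84 from wild type and -0.82 from heterozygous embryos, and without knockout 1 -2.11 and -2.08.

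The second Meox2 probe set was under the brightness filter. It read 13 and 19.4 in wild type, 22.4, 17.9 and 10.2 in heterozygous and 11.7 and 12.7 in knockout embryos, and the genotypes overlapped. Its log2 differences were -0.30 against wild type and -0.32 against heterozygous embryos (limma adjusted p = 0.792 and 0.724 with no filter), much smaller than those of the brighter probe set.

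Tcf15 read 106.8 and 109.5 in wild type, 94.9, 96.2 and 103.7 in heterozygous and 74.6 and 82.1 in knockout embryos. Its 3 groups stood in that order without overlap, with means of 108.2 ± 1.91 (SD, n = 2), 98.3 ± 4.75 (SD, n = 3) and 78.3 ± 5.30 (SD, n = 2). How often other genes stood in that order is not given here. The knockout difference did not pass the test against wild type (log2 -0.45, SE 0.16, limma adjusted p = 0.171) or against heterozygous embryos (-0.31, SE 0.15, limma adjusted p = 0.242). Nor did heterozygous against wild type (-0.13, SE 0.15, limma adjusted p = 0.999). Tbx18 was too dim to be tested with the rest. It read 37.8 and 23.1 in wild type, 30.9, 19.1 and 29.5 in heterozygous and 25.2 and 18.2 in knockout embryos, all overlapping, and in a fit with no filter its difference from wild type was -0.41 (SE 0.37, limma adjusted p = 0.674).

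Foxc2 read 210.6 and 141.1 in wild type, 176.8, 154.1 and 217.3 in heterozygous and 113.7 and 107.6 in knockout embryos. Both knockout arrays were the lowest, beside a wide spread in the controls (means 175.8 ± 49.1, SD, n = 2, and 182.7 ± 32.0, SD, n = 3, against 110.7 ± 4.31, SD, n = 2). The log2 differences of -0.62 from wild type (SE 0.21, limma adjusted p = 0.146) and -0.69 from heterozygous embryos (SE 0.19, limma adjusted p = 0.0653) did not pass. The first was -0.34 without wild type 1 and -0.91 without wild type 2. The latter passed without wild type 2 (limma adjusted p = 0.0482) or heterozygous 2 (0.0494).

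Foxc1, its close relative, read 275.7 and 234.8 in wild type, 200.9, 241.3 and 190.1 in heterozygous and 204.6 and 190 in knockout embryos on its brighter probe set. Knockout arrays lay under wild type and among the heterozygous ones. The log2 difference was -0.36 from wild type (SE 0.16, limma adjusted p = 0.241) and -0.09 from heterozygous embryos (SE 0.14, limma adjusted p = 0.764). The dimmer Foxc1 probe set read 85 and 92.6 in wild type, 82.2, 90.5 and 75.1 in heterozygous and 71.5 and 55.8 in knockout embryos, with a difference of -0.47 from wild type (limma adjusted p = 0.344 with no filter). There the knockout arrays were the lowest of the 7.

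Pax3 read 131.8 and 133.8 in wild type, 70.1, 123.2 and 117 in heterozygous and 136.1 and 102.8 in knockout embryos on its brighter probe set. The highest array of all was a knockout and the lowest, heterozygous 1, was not. Its log2 difference was -0.16 from wild type (SE 0.26, 95% interval -0.73 to 0.41, limma adjusted p = 0.794) and 0.23 from heterozygous embryos (SE 0.23, limma adjusted p = 0.615). The dimmer Pax3 probe set read 99.5 and 130.1 in wild type, 50.6, 125.3 and 103.5 in heterozygous and 124.1 and 127.2 in knockout embryos. Its difference from wild type was 0.14, the opposite sign.

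**Figure D2:**
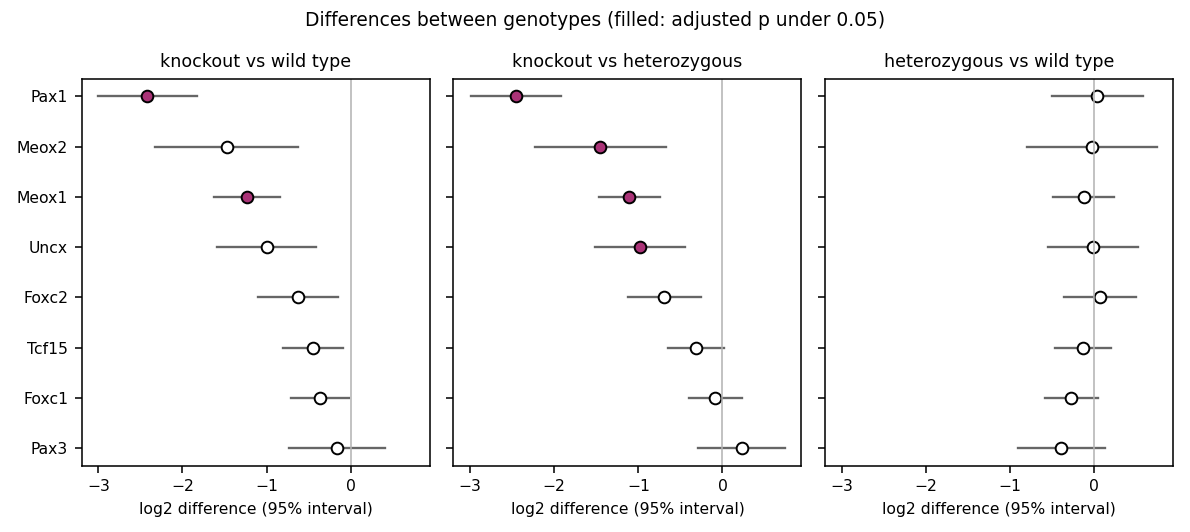
Log2 differences (horizontal axis) of the 8 tested somite transcription factors with 95% intervals in 3 panels, one for each pair of genotypes, filled where the limma adjusted p was under 0.05. The filled points are Pax1 and Meox1 against wild type and Pax1, Meox2, Meox1 and Uncx against heterozygous, and no point is filled between heterozygous and wild type.

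Against wild type 2 of the 8 tested somite genes were called, both lower in knockout, where 3.32% of all 8019 genes were called in either direction and 1.36% were called lower. Against heterozygous embryos 4 of 8 were called, all lower, beside 5.86% of all genes in either direction and 2.76% lower. Pax1, Meox2 and Uncx had knockout means under the level of the brightness filter and passed it through the other genotypes, so these counts only describe. With no filter all 9 could be counted, and 2 of 9 (Pax1 and Meox1) were called in each comparison, beside 1.30% and 2.47% of 12393 genes. Median log2 differences of the 8 were -0.81 from wild type and -0.84 from heterozygous, beside -0.01 and -0.02 over all genes. The knockout comparisons share the knockout arrays.

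Both knockout arrays lay under all 5 others for 6 of the 8 (Pax1, Meox1, Meox2, Uncx, Tcf15 and Foxc2), and for 16.5% of all genes tested. Pax1, Meox2 and Uncx passed the filter through the other genotypes, so this count too only describes.

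Heterozygous and wild-type embryos differed in 0 of the 8 by limma's adjusted p, and 0 of the 8 had an unadjusted p under 0.05, beside 0% and 3.54% of all genes. For Pax1 the difference was 0.04 with a 95% interval of -0.50 to 0.58, for Meox2 -0.02 (-0.80 to 0.75) and for Uncx -0.02 (-0.55 to 0.52). For Pax3 it was -0.39 (-0.91 to 0.13), the largest in size, and for Foxc1 -0.27 (-0.59 to 0.04).

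Over the 7 arrays the 8 somite genes were compared as profiles. Averaged after each gene was centred and divided by its SD, the profile read 0.89 and 0.47 in wild type, -0.04, 0.39 and 0.44 in heterozygous and -0.87 and -1.28 in knockout embryos. Over the 7 arrays, which share the genotype groups, the correlation with the mean of the other 7 genes was 0.977 for Meox1, 0.879 for Meox2, 0.870 for Tcf15, 0.855 for Uncx, 0.848 for Pax1, 0.781 for Foxc2, 0.584 for Foxc1 and 0.063 for Pax3. Of the 28 pairs 25 had a positive correlation, from -0.211 for Pax1 with Pax3 to 0.940 for Uncx with Foxc2, with a median of 0.746. Over all pairs of the 8019 genes 50.1% were positive and the median was 0.00204. Genes with low knockout arrays correlate through the genotype groups, and 16.5% of all genes had both knockout arrays lowest.

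The 5 other genes whose signal was most like that profile over the 7 arrays were Rab1b, a small GTPase of transport from the endoplasmic reticulum to the Golgi (r = 0.992), Myom1, a protein of the sarcomere's M-band (0.991), Acat1, a mitochondrial thiolase (0.990), Zdhhc6, a palmitoyltransferase (0.986), and the homeobox factor Six2 (0.983). Six2 read 164.7 and 158.6 in wild type, 133.1, 152.9 and 144.3 in heterozygous and 91.3 and 87 in knockout embryos, and fell by 0.83 on the log2 scale against wild type (SE 0.15, limma adjusted p = 0.0158). Without wild type 1 (limma adjusted p = 0.069), wild type 2 (0.111), knockout 1 (0.0896) or knockout 2 (0.123) that call was lost. All 5 genes were picked for likeness to a profile that was lowest in the knockout arrays. Low knockout values thus followed from the choice, and the p-values only describe. Against wild type the log2 differences of Rab1b (-0.37, limma adjusted p = 0.120), Myom1 (-0.61, 0.159) and Acat1 (-0.53, 0.0940) did not pass. Zdhhc6 did (-0.67, limma adjusted p = 0.0462) and lost its call without wild type 1 (0.195), wild type 2 (0.110), heterozygous 2 (0.0569), heterozygous 3 (0.0763), knockout 1 (0.130) or knockout 2 (0.259), and with no filter (0.0708).

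Partners and products of the sclerotome, from a list of 21 genes with 13 tested, showed 2 genes lower and 0 higher in knockout than in wild type, with a list median of -0.15. Against heterozygous embryos 3 were lower and 0 higher, with a median of -0.12. For this and the following lists, the shares called over all 8019 genes were 3.32% against wild type (1.36% lower). They were 5.86% against heterozygous embryos (2.76% lower). Col2a1, the cartilage and notochord collagen, read 573.3 and 785.1 in wild type, 788.5, 553 and 556.6 in heterozygous and 351.1 and 282.4 in knockout embryos, and fell by 1.08 on the log2 scale against wild type (SE 0.20, limma adjusted p = 0.0205) and fell by 0.98 against heterozygous embryos (limma adjusted p = 0.0160). Twist1, a basic helix-loop-helix factor of mesenchyme and cranial neural crest, read 443.5 and 481.5, then 446.1, 369.4 and 348.1, then 237.3 and 239.1 in the same order of genotypes. It fell by 0.95 against wild type (SE 0.14, limma adjusted p = 0.00657) and fell by 0.69 against heterozygous embryos (limma adjusted p = 0.0138). For both genes the knockout arrays lay under all others.

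Sox9, the chondrogenic factor, fell by 0.75 on the log2 scale against heterozygous embryos (limma adjusted p = 0.0341), and its difference from wild type was -0.27 (limma adjusted p = 0.482). Ptch1, receptor and target of hedgehog, was at 0.52 and 0.55 and passed neither test (limma adjusted p = 0.108 and 0.0539). Pax9, the partner of Pax1, was too dim to be tested. It read 11.9 and 33.1 in wild type, 40.5, 40.5 and 42.4 in heterozygous and 31.8 and 45.9 in knockout embryos. The genotypes overlapped, and the highest array was a knockout. Nkx3-2, a target of Pax1 and Pax9, was also too dim, at 1.1 to 8.3 over the 7 arrays. The Col2a1 calls were lost without knockout 1 (limma adjusted p = 0.0715 against wild type, 0.0647 against heterozygous) or knockout 2 (0.175 and 0.162), and against wild type also without wild type 2 (0.187). Those of Twist1 were lost without knockout 1 (0.0613 and 0.109) or knockout 2 (0.0652 and 0.115), and against wild type without wild type 2 (0.0756). That of Sox9 was lost without heterozygous 1 (0.082), heterozygous 3 (0.0814), knockout 1 (0.125) or knockout 2 (0.209), and with no filter (0.0726).

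Of 10 tested genes of dermomyotome and myotome (19 listed) 1 was lower and 0 were higher in each knockout comparison, with a median of -0.11 against wild type. Prrx1, a homeobox factor of limb, head and somite-derived mesenchyme, read 164.1 and 211.7 in wild type, 223.8, 154.5 and 144 in heterozygous and 58.3 and 74.6 in knockout embryos. It fell by 1.45 on the log2 scale against wild type (SE 0.23, limma adjusted p = 0.00928) and fell by 1.32 against heterozygous embryos (limma adjusted p = 0.00714). En1, which also marks midbrain and hindbrain, was at 1.12 and did not pass (limma adjusted p = 0.0760). The muscle regulators Myf5, Myod1 and Myog were under the filter, at 1.6 to 17.8, 12.4 to 31.8 and 5.9 to 44.2. The call of Prrx1 against wild type was lost without wild type 2 (limma adjusted p = 0.105), knockout 1 (0.0896) or knockout 2 (0.0514), and that against heterozygous embryos without knockout 1 (0.0841).

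Among 19 tested genes of presomitic mesoderm and segmentation (27 listed), 3 were lower and 1 was higher in knockout than in wild type, with a median of -0.18. Against heterozygous embryos 7 were lower and 1 was higher, with a median of -0.27. Snai1, a repressor of E-cadherin in cells that leave an epithelium, fell by 1.23 against wild type (SE 0.18, limma adjusted p = 0.0062) and fell by 1.16 against heterozygous embryos (0.00391). Nrarp, a feedback inhibitor of Notch, had log2 differences of -0.99 and -1.03, both lower (limma adjusted p = 0.0129 and 0.00571), and the cadherin gene Cdh11 of -0.60 and -0.67 (0.0259 and 0.00842). Lfng, the Fringe glycosyltransferase that modifies Notch, fell by 0.98 against heterozygous embryos (limma adjusted p = 0.0204) and missed against wild type at -0.92 (0.0506).

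Also lower against heterozygous embryos were Pcdh8, a protocadherin of forming somites (-0.85, limma adjusted p = 0.0311), Fgfr1, an FGF receptor (-0.73, 0.0166), and Hey1, a Notch target (-0.67, 0.0443). These 3 and Cdh11 complete the count and were chosen after their values were seen. Hes1, another Notch target, was at 0.43 against wild type and did not pass (limma adjusted p = 0.284). The gene that rose was Cited1, by 1.73 and 1.79 (limma adjusted p = 0.00244 and 0.000853), which is also on the visceral endoderm list. Tbx6, at 9.5 to 55.4, and Msgn1, at 6.9 to 40.6, both factors of presomitic mesoderm, were under the filter.

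Several of these segmentation calls were lost when 1 array was left out. Leaving out a knockout or wild-type array leaves 1 array in that group. The differences themselves moved little for some genes and more for others. For Cdh11 the log2 difference from heterozygous embryos, -0.674, became -0.670 without knockout 1 and -0.678 without knockout 2. For Pcdh8, -0.852 became -1.115 and -0.590. Against wild type the call was lost without wild type 2 for Snai1 (limma adjusted p = 0.0704), Nrarp (0.133) and Cdh11 (0.247), without knockout 1 for Nrarp (0.0957) and Cdh11 (0.159), and without knockout 2 for Snai1 (0.0641), Nrarp (0.0987) and Cdh11 (0.168). Against heterozygous embryos it was lost without knockout 2 for Snai1 (0.058), Nrarp (0.0656), Cdh11 (0.0877), Lfng (0.105), Pcdh8 (0.238), Fgfr1 (0.109) and Hey1 (0.182). Without knockout 1 it was lost for Nrarp (0.0613), Cdh11 (0.0837), Lfng (0.164), Pcdh8 (0.0509), Fgfr1 (0.145) and Hey1 (0.223). Without heterozygous 3 it was lost for Pcdh8 (0.0875), Fgfr1 (0.0549) and Hey1 (0.0991), and without heterozygous 1 for Hey1 (0.0981). With no filter the calls of Hey1 (0.0768) and Pcdh8 (0.0609) were lost. Cited1 kept its calls without any 1 array.

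Notochord and floor plate genes, the source of hedgehog, showed 0 calls among 4 tested of 9 listed, and Foxa2 was at 0.51 against wild type (limma adjusted p = 0.117). Relatives of the somite factors in the Pax, Tbx, Fox and Tcf families showed 0 calls among 10 tested of 25 listed in each knockout comparison, with medians of -0.21 and -0.10. Of them Tbx2 had the largest difference from wild type, -0.59 (limma adjusted p = 0.433). With 3.32% and 5.86% of all genes called in the knockout comparisons, 0 calls among 4 or 10 genes do not show that they were unchanged. Between heterozygous and wild-type embryos there were 0 calls on any of these lists, beside 0% of all genes.

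**Figure D3:**
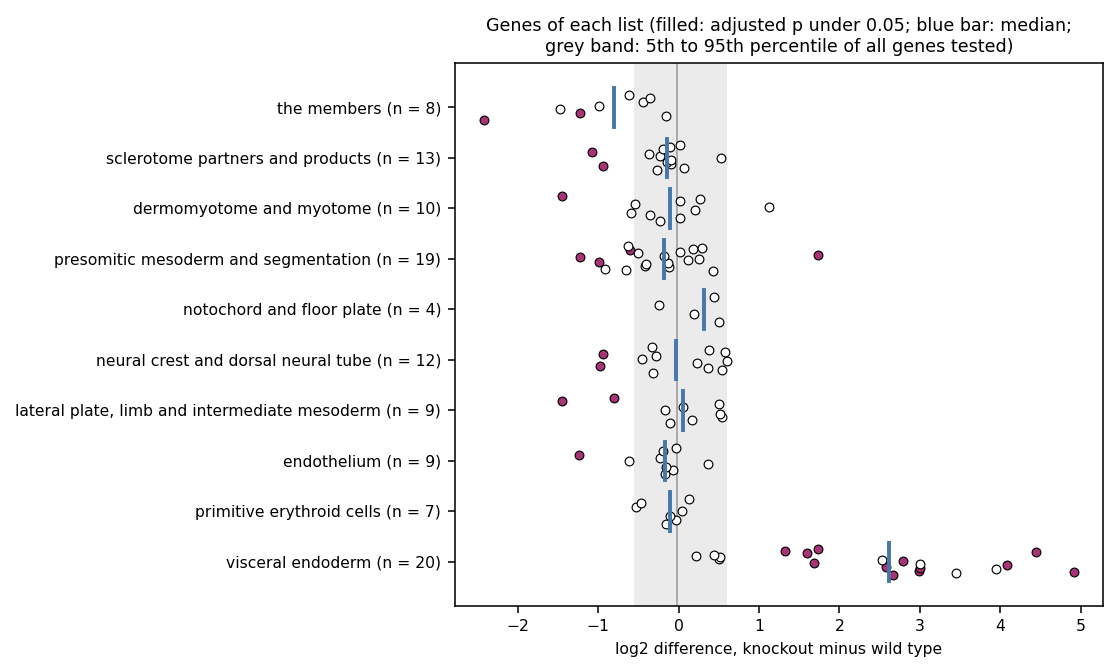
Log2 difference from wild type in knockout embryos (horizontal axis) for each tested gene of the somite factors and of 9 other lists, filled where the limma adjusted p was under 0.05, with a blue bar at each median and a grey band for the 5th to 95th percentile of all genes tested. The somite factors' median is -0.81, the medians of sclerotome partners, dermomyotome and segmentation genes lie between -0.18 and -0.11, and that of visceral endoderm genes is 2.62.

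Markers of other tissues moved with the genotype too. Of 20 tested visceral endoderm genes (23 listed, 21 on the array) 12 were higher and 0 lower in knockout than in wild type. Compared with heterozygous embryos 15 were higher. Some, such as Apob and Cubn, passed the brightness filter through the knockout arrays, so these counts only describe. Apob read 49.1 and 20.2 in wild type, 15.9, 35.2 and 26 in heterozygous and 246.6 and 317.4 in knockout embryos. The summed signal of the 21 was 3841.3 and 1356.5 in wild type, 1440.7, 2662.9 and 1741.5 in heterozygous and 12732.9 and 15092.3 in knockout embryos, and no gene of the 21 was listed at 0 on any array. Against wild type Apoa1 rose by 4.91 on the log2 scale (limma adjusted p = 0.0171), Spink1 by 4.45 (0.0181) and Cubn by 4.08 (0.00365). Apoc2 rose by 4.92 against heterozygous embryos (limma adjusted p = 0.0365), and Hnf4a, at 2.53 against wild type, did not pass (0.129).

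The rises against wild type were lost without wild type 2 for Apoa1 (limma adjusted p = 0.103), without knockout 1 for Apoa1 (0.103) and Spink1 (0.107), and without knockout 2 for Apoa1 (0.135), Spink1 (0.135) and Cubn (0.0514). That of Apoc2 was lost without heterozygous 3 (0.0806), knockout 1 (0.180) or knockout 2 (0.194). With no filter the calls of Spink1 against wild type (0.0501) and Apoc2 (0.0806) were lost, and without wild type 2 Spink1 was at 2.82. The part of these visceral endoderm transcripts in the low somite signals of the knockout arrays was not tested.

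**Figure D4:**
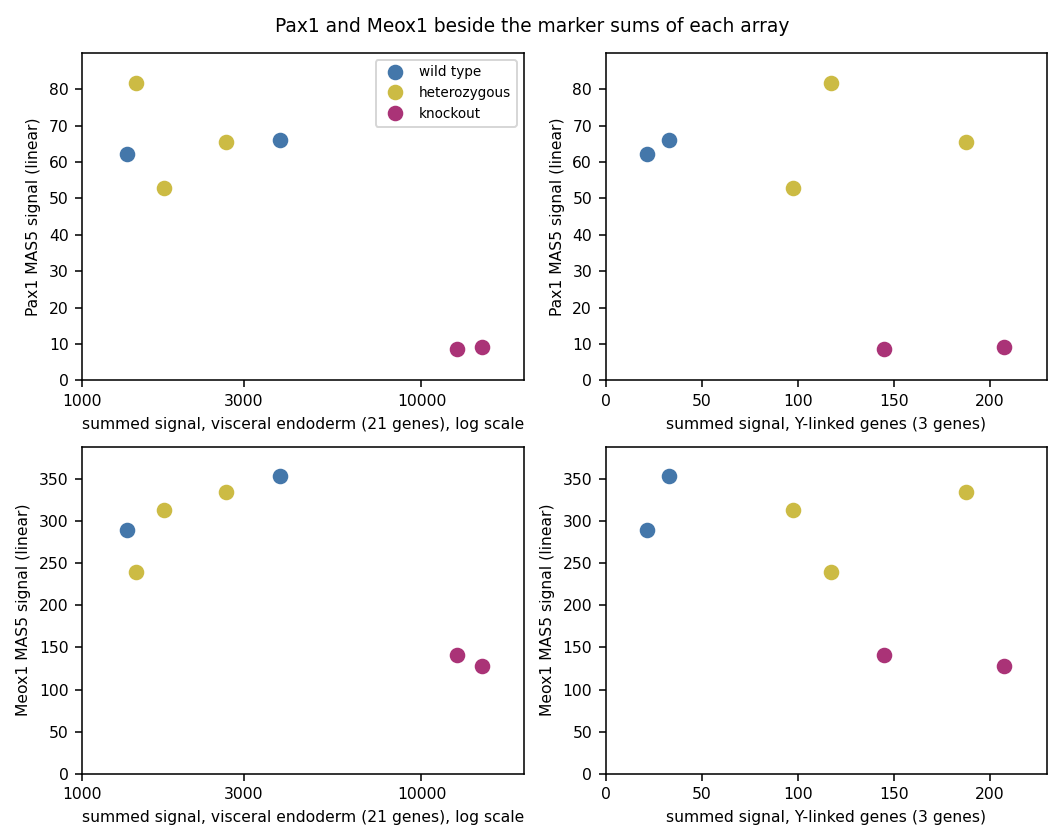
Signal of Pax1 (upper panels) and Meox1 (lower panels) on each array against the summed signal of 21 visceral endoderm genes (left, log axis) and of 3 Y-linked genes (right), coloured by genotype. The knockout arrays combine sums of 12732.9 and 15092.3 on the left with the lowest Pax1 and Meox1, and on the right the wild-type arrays have the lowest sums, 32.9 and 21.4.

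The sum of 3 Y-linked genes was 32.9 and 21.4 in wild type, 117.6, 187.5 and 97.8 in heterozygous and 144.8 and 207.5 in knockout embryos, lowest in wild type although the labels give mixed sex for all. Its part in the results was not tested. Kdm5d, the 1 tested of them, was higher by 2.91 on the log2 scale in knockout than in wild type (limma adjusted p = 0.00559). That call was lost without knockout 2. The difference was 2.59 between heterozygous and wild type (limma adjusted p = 0.301) and 0.32 between knockout and heterozygous (0.662). Wild type read 10 and 4.3, so Kdm5d passed the filter through the other genotypes.

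Neural crest and dorsal neural tube genes, a second home of Pax3, showed 2 lower and 0 higher among 12 tested (16 listed) in each knockout comparison, with medians of -0.03 and 0.02. They were Twist1, already counted on the sclerotome list, and Zic1, a zinc-finger factor of dorsal neural tube and somite. Zic1 was lower by log2 differences of -0.98 and -1.03 (limma adjusted p = 0.0233 and 0.00973). Msx2 was at 0.60 and did not pass (limma adjusted p = 0.118). Lateral plate, limb and intermediate mesoderm genes also showed 2 lower and 0 higher among 9 tested (16 listed). These were Prrx1, already counted on the dermomyotome list, and its relative Prrx2. Prrx2 was lower by log2 differences of -0.80 and -0.84 (limma adjusted p = 0.0242 and 0.0102). Pitx1 was at 0.54 (limma adjusted p = 0.318).

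The Zic1 calls were lost without knockout 1 (limma adjusted p = 0.088 against wild type and 0.0552 against heterozygous) or knockout 2 (0.184 and 0.115), and against wild type without wild type 2 (0.197) or with no filter (0.0501). Those of Prrx2 were lost without knockout 1 (0.0815 and 0.0533) or knockout 2 (0.184 and 0.122), and against wild type without wild type 1 (0.0684) or wild type 2 (0.192).

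Of 9 tested endothelial genes 1 was lower in each knockout comparison. Emcn, a sialomucin of veins and capillaries, was lower by log2 differences of -1.23 and -1.17 (limma adjusted p = 0.00848 and 0.00578), without knockout 2 0.091 and 0.0793, and without wild type 2 0.0908 against wild type, while Tie1 was at -0.62 (0.266). Primitive erythroid genes showed 0 calls among 7 tested (Klf1 -0.53, limma adjusted p = 0.375). Trophoblast and decidua genes showed 0 among 3 tested, and Prl8a2 was at 1.55 (limma adjusted p = 0.548) with heterozygous 1 apart from the others at 828.6. Beside 3.32% and 5.86% of all genes called, 0 calls in lists this short do not show that these tissues were unchanged.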

How the data were processed

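Probe set intensities on a linear scale were deposited by the authors, summarised with MAS5 per the submitters' processing notes. The sources used here do not give the software version, scaling target, detection calls or the build behind the array annotation. The table has 22690 rows, 64 of them controls. Platform annotation named exactly 1 gene for 20380 of the remaining 22626, several for 691 and none for 1555. A pseudocount of 3.8 (10th percentile of the deposited values) was added before log2, which understates differences of dim genes. The brightest probe set stood for its gene. Genes whose mean was under the 40th percentile (38.1 with the pseudocount) were not tested, leaving 8019 of 12393. Signals are not compared between probe sets.

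Genotypes, taken from sample titles, were compared with limma 3.58.1 under R 4.3.3, using lmFit and a trended eBayes. A single fit took all 7 arrays and had 4 residual and 6.19 prior degrees of freedom. P-values are two-sided, with Benjamini-Hochberg adjustment in each comparison. The fit was tested on simulated data. The number of arrays limits the precision. Intervals are 95% and unadjusted.

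The 9 genes, the 12 lists of other genes (from textbook knowledge) and the tests were chosen with earlier results of these data known. Named from each list were up to 4 genes past the threshold in a knockout comparison, by size of the difference from wild type, and the 1 of largest difference that did not pass. Genes under the filter were named for their role. The 5 genes most like the somite profile were ranked by Pearson correlation. Alternatives were other pseudocounts (1 and 16), filters, scaling, array weights, a replicate block, probe set choices and each array left out. For the other named genes that passed, each array left out, no filter and the block were added after seeing the data.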

Additional observations from a re-analysis of the deposited data

How the results depend on the processing

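Of 774 alternative values of single genes, 602 kept their direction and side of the threshold, 148 lost a call, 7 gained one and 17 changed sign. Pax1 was past the threshold in every alternative that tested it, and Meox1 in all but those named here and above. Against heterozygous embryos, the 4 somite genes called became 2 with no filter, 2 with only the arrays of the genotypes compared, 2 with each probe set on its own, and 1 to 4 with an array left out. With the 60th percentile filter 1 was called, because Pax1, Meox2 and Uncx were then not tested. Array weights gave 5 against heterozygous embryos, and no intensity trend gave 3 in each knockout comparison. Against wild type, the 2 became 1 at the 60th percentile (Pax1 not tested), 4 with array weights and 1 to 3 with an array left out.

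Over all genes, the 266 against wild type became 161 with no filter, 174 with no intensity trend, 514 with array weights and 36 to 417 with an array left out (57 without wild type 2, 417 without heterozygous 1, 75 without knockout 1, 36 without knockout 2). The 470 against heterozygous became 306 with no filter, 262 with no trend and 67 to 545 with an array left out (78 without knockout 1, 67 without knockout 2). With array weights the 470 became 663. The cause of these shifts was not tested.

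Deviations of same-numbered arrays from their groups had correlations of -0.294 to 0.005. In a group of 2 arrays the deviations mirror each other, so this check cannot tell whether the replicate numbers pair arrays. With the replicate block 72 and 76 of all genes, and 2 and 1 of the somite genes, were called against wild type and heterozygous. Meox1 against heterozygous then had a limma adjusted p of 0.0634.

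The changes of sign touched only differences that were not called. With an array left out, the log2 difference from heterozygous ranged from -0.156 to 0.0125 for Foxc1 (positive without heterozygous 2) and -0.0204 to 0.424 for Pax3 (negative without heterozygous 1), and that of Pax3 from wild type from -0.358 to 0.0345 (positive without knockout 2), with 0.14 on its other probe set. Between heterozygous and wild type the left-out values ranged from -0.215 to 0.350 for Foxc2, -0.267 to 0.0172 for Meox1, -0.0828 to 0.0920 for Meox2, -0.113 to 0.184 for Pax1 and -0.159 to 0.134 for Uncx. There the replicate block gave -0.0618 for Foxc2, and array weights gave 0.0153 for Meox2, -0.0363 for Pax1 and 0.0047 for Uncx.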
